A study of Homo sapiens with 20 samples.

Results

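The genes described here are 9 feedback and transducing genes of the canonical Wnt pathway: *AXIN2*, *NKD1*, *RNF43*, *ZNRF3*, *LGR4*, *LGR5*, *TCF7*, *TCF7L2* and *LEF1*. They were chosen by name, and each was matched to 1 Ensembl identifier among the 60623 rows of the pancreatic progenitor (PP) tables and the 60624 rows of the tables for islet-like organoids (hILOs). All libraries came from the human embryonic stem cell line MEL1, named in the study's methods as MEL1 INS GFP/W, so that all groups share a GFP reporter at the insulin gene. Cells were either wild type (WT) or with both copies of *ALKBH5*, an eraser of m6A on RNA, disrupted by CRISPR-Cpf1 (A5-KO). hILOs had 2 WT and 2 A5-KO libraries, untreated, from a protocol whose media run to day 22 in the labels. The paper's methods list a further medium after that day. PPs, whose media run to day 14, had 2 libraries for each genotype at 0, 1, 2 and 3 h of actinomycin D (Act D, 1 µg/ml). Act D blocks transcription and is used to follow the decay of mRNAs. Whether it acted equally in both genotypes was not tested. The labels name 1 knockout genotype and no second clone, so what belongs to this line and what belongs to the loss of *ALKBH5* cannot be told apart. All groups shared the first day of differentiation with 3 µM CHIR99021, a Wnt activator, which later media do not list.

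Wnt ligands bind Frizzled receptors and their LRP coreceptors, which stops the destruction of β-catenin (*CTNNB1*) and lets it enter the nucleus with TCF/LEF factors. Several targets of this complex act back on the pathway: AXIN2 is a scaffold of the destruction complex, NKD1 binds Dishevelled, and RNF43 and ZNRF3 are membrane ubiquitin ligases that remove Frizzled from the cell surface. LGR4 and LGR5 are receptors for R-spondins, which clear RNF43 and ZNRF3. In the embryo, Wnt signals first promote endoderm and must later be held down for pancreatic fate, and in the gut the same ligases limit the growth of stem cells.

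The sequences shown first are from the 3′ untranslated regions of the 4 tested genes whose change from 1 to 3 h of Act D differed most between the genotypes. These genes were picked by that result in these data, so the motifs they hold are no test of it. Any part of the motifs in it was not tested. The AU-rich heptamer TATTTAT, a core of elements known in unstable mRNAs, is in capitals in each window, written as DNA of the transcribed strand from GRCh38 and the GENCODE canonical transcript. *TCF7L2* had 1 copy, at chr10:113166620-113166646 on the plus strand. *AXIN2* had 2, at chr17:65529741-65529767 and chr17:65529591-65529617 on the minus strand. *ZNRF3* had 4, the first and last at chr22:29055251-29055277 and chr22:29057258-29057284 on the plus strand, and was the only one of the 9 to hold the longer nonamer TTATTTATT. *RNF43* had 3, close to the end of the transcript, the first at chr17:58353742-58353768 on the minus strand.
TCF7L2: gggccagtagTATTTATtgctttagag
AXIN2 first: aagcctgaacTATTTATtaaaaacatg
AXIN2 second: tccttactgaTATTTATagaacagttg
ZNRF3 first: tggtcacttgTATTTATttattcattc
ZNRF3 last: tttactaataTATTTATcttaagccat
RNF43 first: cccacatgggTATTTATatctgaacca

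*NKD1* held 2 heptamers and *LGR5* 1, while *LGR4*, *TCF7* and *LEF1* held none. Across 19228 coding transcripts, 31.75% held at least 1 heptamer and 8.498% the nonamer. The 3′ untranslated regions of the 9 genes were 1210 to 15468 bases long, against a median of 1064 over these transcripts. No share given here was matched for length. GGACT, a common form of the m6A consensus, occurred after the stop codon in 7 of the 9, with 19 copies in the 15468 bases of *NKD1*, 3 in *ZNRF3*, 2 each in *RNF43* and *TCF7*, 1 each in *LGR4*, *LGR5* and *TCF7L2*, and none in *AXIN2* or *LEF1*. It was present in 57.27% of all transcripts. Tested genes with such a coding transcript were also split by the heptamer. In WT the median slope on log2(CPM + 0.1) was -0.06 per hour for the 4472 genes with it and -0.01 for the 7730 without it. In A5-KO the medians were -0.15 and -0.05. They were not matched for length either, and a part of the heptamer in the slopes was not tested. These are counts of letters, and no site was measured. Of the 9 genes, 5 had promoters in the RefSeq table of GRCh38.p14 (*LEF1*, *TCF7*, *TCF7L2*, *LGR4* and *RNF43*). None of their 9 promoter windows, from 250 bases before to 50 after the start, held the TCF/LEF letters CTTTGAT or CTTTGAA on either strand, which 6.86% of all 35116 promoters did.

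The PP libraries held between 30516384 and 35206513 reads, recovered from the deposited CPM (read counts scaled to the same total in each library), and 3 reads were worth 0.0852 to 0.0983 CPM. hILO values are TPM, a level per transcript length, for which depth is unknown. Over the listed genes they summed to 924887 and 922614 in WT and to 897038 and 887320 in A5-KO, a gap that runs with genotype. *ALKBH5* was 149 and 172 CPM in WT PPs against 19.1 and 18.8 in A5-KO PPs at 0 h, and 78.8 and 81.9 TPM against 4.16 and 3.42 in hILOs, so its level matched the label in each of these libraries. In PPs, 9 of 10 progenitor markers reached 1 CPM in both genotypes at 0 h, and in hILOs 10 of 10 endocrine markers in WT and 9 in A5-KO reached 1 TPM. Their levels were not all equal. Of 9 progenitor markers tested at 0 h, 1 was called lower in A5-KO and 0 higher. Of 10 endocrine markers tested in hILOs, 5 were called lower in A5-KO and 2 higher. *INS* was 13033 and 12978 TPM in WT against 7605 and 7606 in A5-KO, and *NEUROD1* 208 and 209 against 352 and 350. The liver markers, 8 genes, summed to 1193 and 1228 CPM in WT against 2034 and 2049 in A5-KO PPs at 0 h, and to 19798 and 20163 TPM against 32498 and 32203 in hILOs. Few genes carried these sums. In PPs *AFP* went from 563 and 551 to 1343 and 1294 CPM and *SERPINA1* lay the other way, at 311 and 371 against 200 and 268, and 5 of 8 were called higher and 0 lower. In hILOs *TTR* went from 7527 and 7550 to 18674 and 18749 TPM and *FGB* from 1362 and 1394 to 737 and 748, and 2 were called higher and 1 lower. Whether these sums reflect liver cells was not tested, nor was the part of such cells in any difference below. The 2 WT libraries at 2 h stood furthest apart, with a median absolute difference of 0.202 on the log2 scale, against 0.068 to 0.151 in the other conditions of PPs.

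At 0 h the order of the 9 genes, as CPM divided by exon length and rescaled to the same sum, was led in both genotypes by *LGR4* (93.4 ± 7.25, SD, n = 2, in WT and 95.1 ± 12.5 in A5-KO), *TCF7L2* (50.1 ± 7.32 and 47.2 ± 6.67) and *ZNRF3* (6.01 ± 1.34 and 5.49 ± 1.47). *TCF7* (2.44 ± 0.0328 and 2.29 ± 0.134) and *AXIN2* (1.94 ± 0.507 and 2.48 ± 0.314) followed. *TCF7* was ahead in WT and *AXIN2* in A5-KO, and the *TCF7* mean lay within the SD of *AXIN2* in both. *RNF43*, *LEF1*, *LGR5* and *NKD1* all had means below 1 on this scale and their order changed between genotypes. *LGR4* thus ranked above 91.8% of the genes at 1 or more in WT PPs, and *AXIN2*, the usual reporter of pathway activity, above 13.4%. The exon length used includes bases shared with other genes, 25.3% for *AXIN2* and 69.0% for *RNF43*. How reads there were assigned is not known, so these 2 ranks are uncertain.

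The untreated PPs answer whether the level of these genes differed between the genotypes before Act D. *AXIN2* was 3.70 and 2.6 CPM in WT and 4.48 and 3.81 in A5-KO. The A5-KO libraries were the higher pair, but the log2 difference of 0.32 (SE 0.20) had an adjusted p of 0.423. *RNF43* was 1.46 and 1.18 CPM in WT and 1.67 and 1.90 in A5-KO (log2 difference 0.27, adjusted p = 0.504). *NKD1* was 1.03 and 0.713 CPM in WT and 1.14 and 1.32 in A5-KO (log2 difference 0.26, adjusted p = 0.545). The A5-KO pair was thus the higher one for all 3 genes, but none was called, that is, past an adjusted p of 0.05 and a change of 1.5-fold. Over all 13911 genes tested, 1.57% were called higher and 1.13% lower in A5-KO.

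*ZNRF3*, *LGR4*, *TCF7* and *TCF7L2* overlapped between the genotypes at 0 h, with log2 differences from -0.09 to 0.06. *TCF7L2* was 116 and 96.0 CPM in WT and 112 and 93.0 in A5-KO. *LGR4* was 194 and 178 CPM in WT and 211 and 178 in A5-KO. None of the 7 genes that passed the filter (mean of at least 1 CPM) had an unadjusted p below 0.05, and edgeR and DESeq2 on the recovered reads called none of them. The design of 2 against 2 libraries cannot reach an exact permutation p below 0.33, so these calls rest on the spread that limma shares across genes.

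*LEF1* and *LGR5* did not pass the filter. *LEF1* was 1.41 and 0.589 CPM in WT (49 and 19 reads) and 0.216 and 0.469 in A5-KO (7 and 16 reads), so the WT pair was the higher. *LGR5*, a stem cell marker of the gut, was 0.373 and 0.558 CPM in WT and 1.17 and 0.410 in A5-KO. Its groups overlapped, and over all 16 PP libraries it ranged from 3 to 60 reads.

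**Figure D1:**
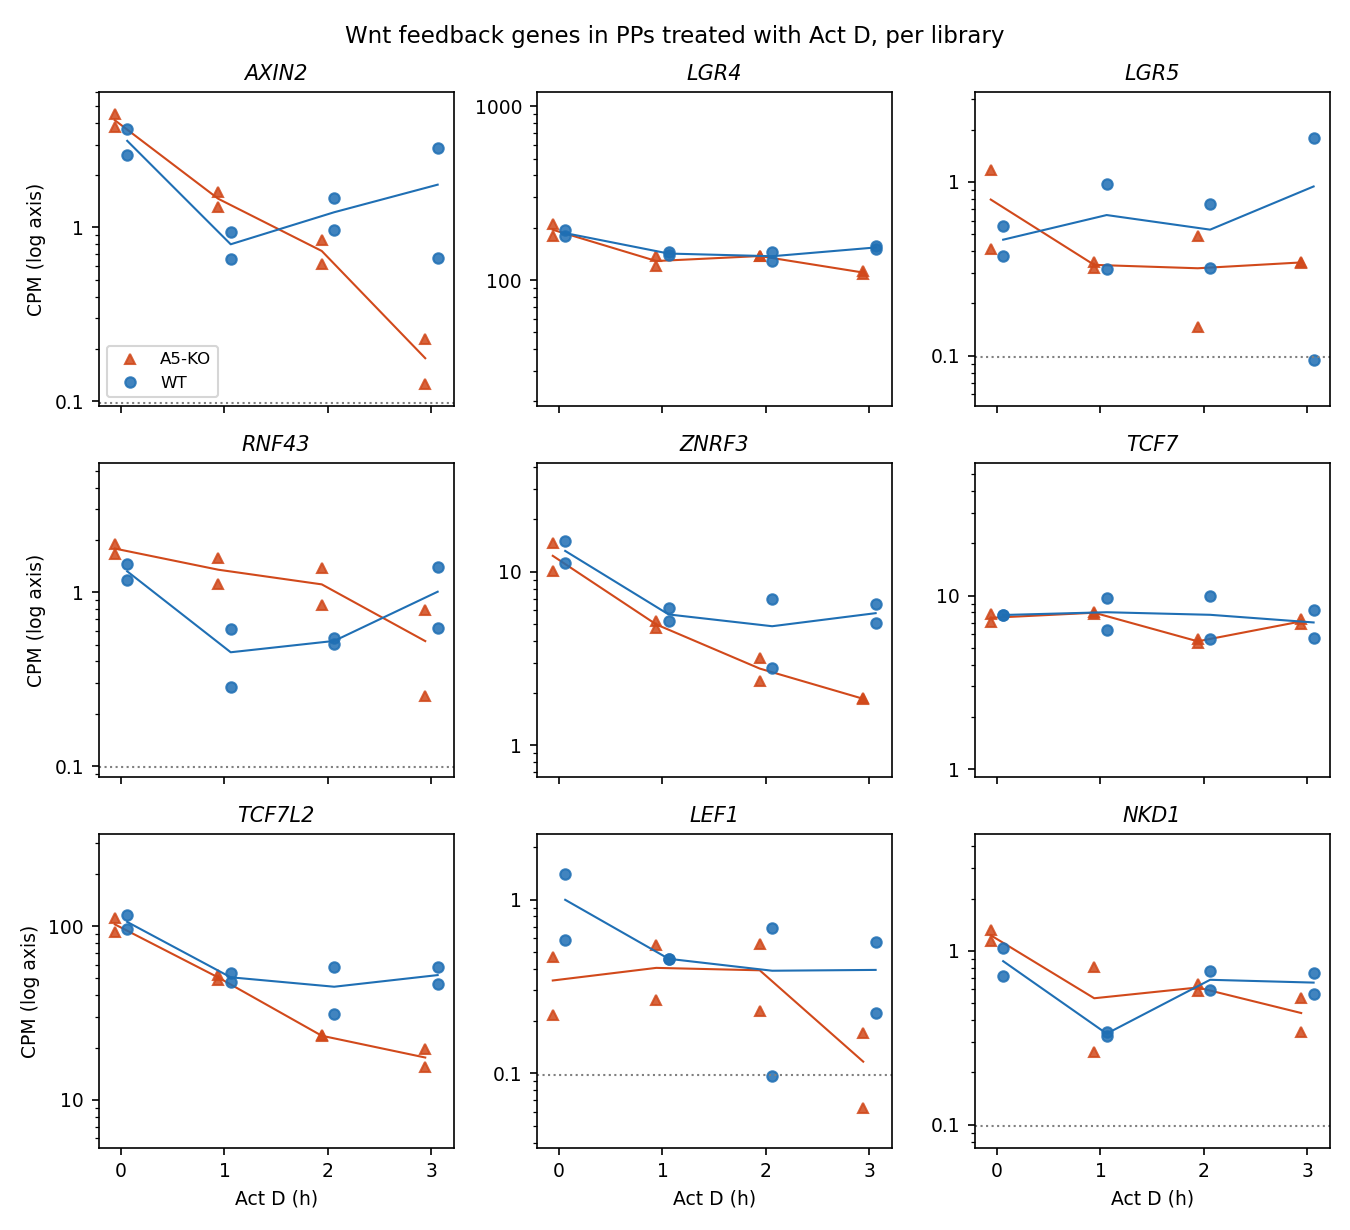
CPM of the 9 genes (vertical axis, log scale, the same fold span in each panel) against hours of Act D. Circles are WT and triangles A5-KO libraries, 2 at each time, lines join their means, and the dotted line marks 3 reads in the shallowest library. *TCF7L2*, *ZNRF3* and *AXIN2* fell in both genotypes to 1 h and parted by 3 h, where the A5-KO *TCF7L2* libraries were at 19.5 and 15.6 CPM and the WT ones at 46.7 and 57.8.

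In hILOs the same question concerned the later stage of differentiation. *AXIN2* was 3.06 and 3.88 TPM in WT and 4.90 and 3.33 in A5-KO. *ZNRF3* was 2.43 and 3.38 TPM in WT and 4.05 and 3.34 in A5-KO. *RNF43* was 4.87 and 3.92 TPM in WT and 3.58 and 3.90 in A5-KO. The genotypes overlapped for *AXIN2* and *ZNRF3*, and for *RNF43* the lower WT value lay beside the higher A5-KO value. *LGR4* was again the highest, at 54.8 and 55.1 TPM in WT and 56.2 and 53.6 in A5-KO.

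*TCF7L2* varied more between replicates (9.05 and 15.9 TPM in WT, 10.2 and 15.6 in A5-KO) than between genotypes. *TCF7* was 3.45 and 2.50 TPM in WT but 4.48 and 0.696 in A5-KO, the widest split of a pair among the genes tested. Without the first A5-KO library its log2 difference was -1.22, and without the second 0.47. None of the 6 that reached a mean of 1 TPM was called and none had an unadjusted p below 0.05, with log2 differences on log2(TPM + 1) from -0.37 for *TCF7* to 0.27 for *ZNRF3*. Over the 17300 genes tested, 2.70% were called higher and 4.09% lower. In these bulk samples, fewer cells of a type and less RNA per cell cannot be told apart.

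*NKD1* was 0.163 and 0.221 TPM in WT and 0.0293 and 0.0758 in A5-KO, so both A5-KO libraries were lower, below the filter. *LGR5* was between 0 and 0.119 TPM and *LEF1* between 0 and 0.186, with 1 and 2 of the 4 libraries listed at 0. *LGR5* and *LEF1* were therefore near 0 in hILOs, while *NKD1* was low but listed above 0 in all 4 libraries. None of these genes passed the filter, so the lower *NKD1* values in A5-KO carry no test.

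**Figure D2:**
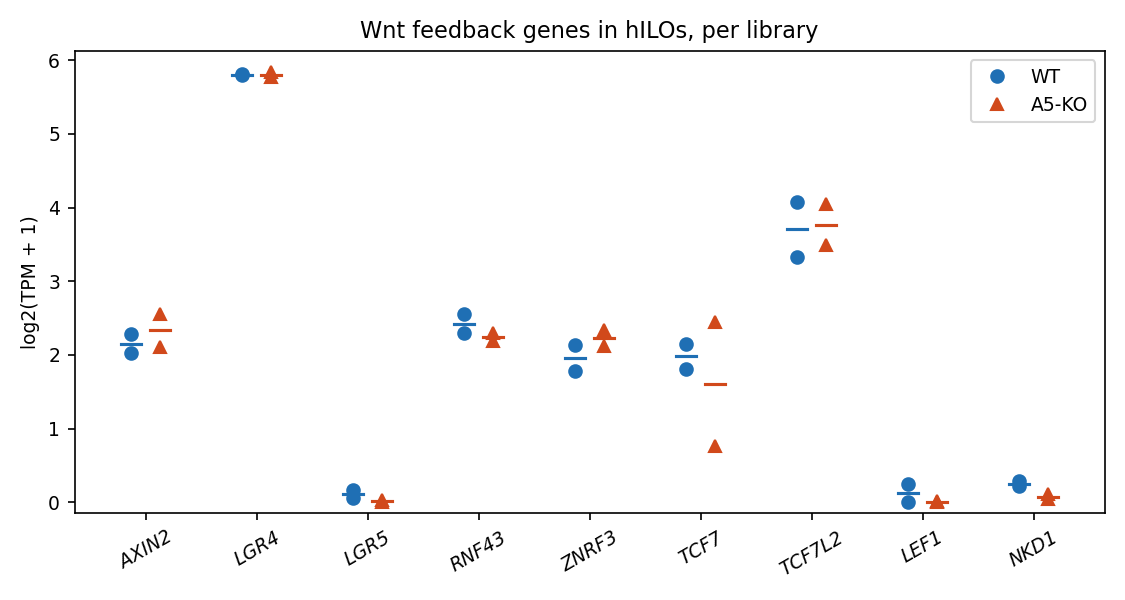
log2(TPM + 1) of each gene in the hILO libraries (vertical axis). Circles are WT and triangles A5-KO, with a bar at each mean of 2 libraries, and *TCF7* shows the widest A5-KO pair (4.48 and 0.696 TPM).

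Levels of *RNF43* and *AXIN2* carry an uncertainty of annotation. In GENCODE v44, 69.0% of the exon bases of *RNF43* and 25.3% of those of *AXIN2* also belong to another gene on the same strand (ENSG00000285897 and ENSG00000266076). These other identifiers held 24.5 to 25.4 and 3.43 to 4.50 TPM in hILOs, but 0 to 7 and 0 reads in PPs. How reads in shared exons were assigned is not given in the sources used here, and the levels of these genes are not compared between stages. *ZNRF3* and *CTNNB1* share no exon base, and the other members at most 5.2%.

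The first hour of Act D gave the earliest change in each genotype. *TCF7L2* went from 116 and 96.0 CPM at 0 h to 48.0 and 53.5 at 1 h in WT, and from 112 and 93.0 to 49.1 and 52.2 in A5-KO. Both genotypes fell by about the same amount, and the log2 changes were -1.05 (SE 0.21, adjusted p = 0.00206) and -1.01 (SE 0.21, adjusted p = 0.00212). *ZNRF3* went from 15.1 and 11.2 CPM to 5.20 and 6.15 in WT, and from 14.6 and 10.1 to 4.75 and 5.20 in A5-KO. Its log2 changes were -1.19 (SE 0.33, adjusted p = 0.0153) and -1.27 (SE 0.33, adjusted p = 0.00768). The WT call was lost without the first WT library at 0 h or at 1 h, and the A5-KO call without the first A5-KO library at 0 h.

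*AXIN2* dropped to 0.658 and 0.943 CPM at 1 h in WT, 25.4% of its 0 h mean, and to 1.61 and 1.31 in A5-KO, 35.3% of its own. The log2 changes were -1.85 (SE 0.50, adjusted p = 0.0133) and -1.44 (SE 0.50, adjusted p = 0.0351). The A5-KO call was lost without any 1 of its 4 libraries at 0 and 1 h (adjusted p from 0.0713 to 0.190), with no filter (0.119) and with median-of-ratios scaling (0.0510). The WT call was lost without the first WT library at 0 h (0.136) or at 1 h (0.113) and with no filter (0.0567). *LGR4*, at 140 and 144 CPM in WT and 137 and 120 in A5-KO, fell less. Its log2 changes of -0.39 (adjusted p = 0.00743) and -0.60 (adjusted p = 0.000341) lay on either side of the 1.5-fold limit, and the change in A5-KO fell under it with median-of-ratios scaling (-0.43), with edgeR (-0.44), and without the first library at 0 h (-0.47) or the second at 1 h (-0.50). *RNF43* fell in WT to 0.286 and 0.618 CPM (log2 change -1.42, SE 0.49, adjusted p = 0.0470) and was 1.12 and 1.58 in A5-KO (log2 change -0.40, adjusted p = 0.572). The WT call was lost under all 5 other settings run (adjusted p from 0.0517 to 0.157) and in 9 of 16 fits that left out a library.

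*TCF7* was at 104% of its 0 h mean in WT and 107% in A5-KO, with WT libraries of 6.32 and 9.73 CPM on both sides of the 0 h values. Of the 6 genes that passed the filter over all 16 libraries, 4 were called lower in WT, *RNF43* among them, and 4 in A5-KO, and none higher. The share over 13620 genes was 15.4% lower and 0.301% higher in WT, and 17.1% lower and 1.37% higher in A5-KO. No difference between the genotypes was called for a member in this hour, the largest being 1.03 for *RNF43* (SE 0.69, adjusted p = 0.723). Of all genes, 0.25% changed more upwards and 0% more downwards in A5-KO by the same limma fit. In that last direction 523 genes had an unadjusted p below 0.05, and edgeR on the recovered reads also called 0.

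After the first hour the genotypes parted. *TCF7L2* in WT measured 31.1 and 58.5 CPM after 2 h, then 46.7 and 57.8 after 3 h, so at each time 1 library lay above and 1 below both values at 1 h. In A5-KO the values were 23.2 and 23.6 CPM, then 19.5 and 15.6, below each WT library of the same time. From 1 to 3 h its log2 change was 0.04 (SE 0.21, adjusted p = 0.998) in WT and -1.53 (SE 0.21, adjusted p = 0.000130) in A5-KO. The difference of these changes, -1.57 (SE 0.30), had an adjusted p of 0.00257.

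*ZNRF3* followed the same course. It measured 2.79 and 6.92 CPM after 2 h, then 5.07 and 6.48 after 3 h, in WT, and 3.18 and 2.36, then 1.85 and 1.87, in A5-KO. The first WT library at 2 h thus lay between the A5-KO libraries, and the second above them. The log2 change from 1 to 3 h was 0.02 in WT (SE 0.33, adjusted p = 0.998) and -1.37 in A5-KO (SE 0.33, adjusted p = 0.00554), and their difference was -1.39 (SE 0.46, adjusted p = 0.0442). That last call was narrow. It was lost in 13 of 16 fits that left out a library (adjusted p up to 0.141), with no filter (0.132) and with a pseudocount of 1 (0.063).

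In WT *AXIN2* measured 0.963 and 1.49 CPM after 2 h, then 2.86 and 0.664 after 3 h, and in A5-KO 0.613 and 0.852, then 0.227 and 0.126. The WT pair at 3 h was wide apart, and the A5-KO values rest on 8 and 4 reads. From 1 to 3 h the log2 change was 0.76 (SE 0.50, adjusted p = 0.897) in WT and -2.51 (SE 0.50, adjusted p = 0.00154) in A5-KO. The difference, -3.27 (SE 0.70, adjusted p = 0.00478), was -2.30 without the first WT library at 3 h and -4.25 without the second, and was called in both cases.

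*RNF43* measured 0.546 and 0.505 CPM after 2 h, then 0.626 and 1.39 after 3 h, in WT, and 0.847 and 1.38, then 0.795 and 0.253, in A5-KO. Its log2 changes from 1 to 3 h, 0.98 in WT (adjusted p = 0.724) and -1.35 in A5-KO (adjusted p = 0.0515), were not called. Their difference was -2.33 (SE 0.69, adjusted p = 0.0269), and it lost its call with no filter (adjusted p = 0.116) and without the second A5-KO library at 3 h (-1.66, adjusted p = 0.141), the second at 1 h (-2.10), the second WT library at 3 h (-1.81) or the first at 1 h (-1.88). *LGR4* ended at 158 and 150 CPM in WT and 113 and 108 in A5-KO, with a difference of changes of -0.33 (adjusted p = 0.0925). *TCF7* was 8.29 and 5.72 CPM against 6.87 and 7.34 at 3 h, and its difference was 0.02.

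Of the 6 genes, none was called lower or higher from 1 to 3 h in WT, none had an unadjusted p below 0.05 there and edgeR called none, where all genes gave 0.0954% and 0.565%. In A5-KO 3 were called lower, against 16.9% of all genes, with 0.954% higher. The difference between the genotypes was called lower in A5-KO for 4 of 6, against 18.3% of all genes, with 2.25% in the other direction. With 2 h in place of 3 h, a choice made after the data were seen, none of the 4 differences was called. They were then -1.46 for *AXIN2*, -0.86 for *TCF7L2*, -0.52 for *RNF43* and -0.48 for *ZNRF3*.

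**Figure D3:**
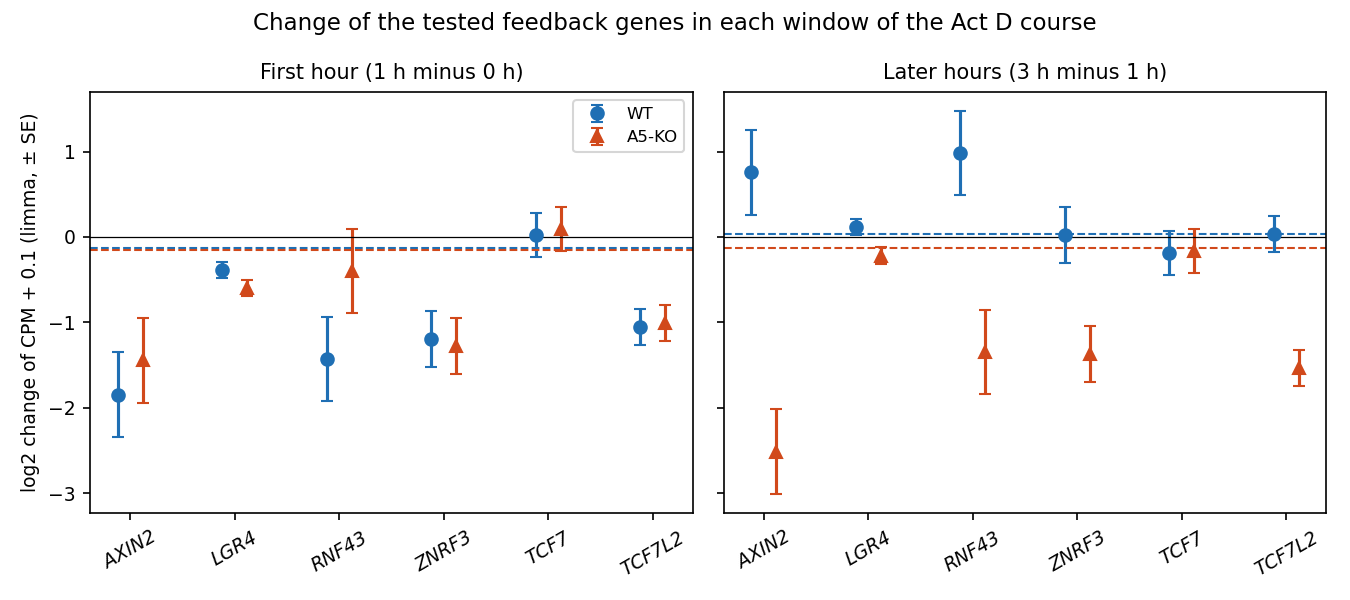
log2 change of CPM + 0.1 (vertical axis) of the 6 tested genes from 0 to 1 h (left) and from 1 to 3 h (right), with SE from limma over 16 libraries. Circles are WT, triangles A5-KO and dashed lines the median of all 13620 genes. On the left no difference between the genotypes was called, with *RNF43* furthest apart at -1.42 in WT and -0.40 in A5-KO. On the right *AXIN2* is at 0.76 in WT and -2.51 in A5-KO.

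The median of all genes also shifted, by less than the 4 called differences. The median change over all genes from 1 to 3 h was 0.04 in WT and -0.13 in A5-KO, and that of the difference -0.20, so each member's difference is to be read against that shift. The shift depended on scaling, as the median of the difference was -0.02 with median-of-ratios scaling. *MYC*, another Wnt target and a transcript known for its short life, measured 21.8 and 24.2 CPM in WT after 1 h, then 10.6 and 34.0, then 37.6 and 47.1 after 3 h. In A5-KO it was 27.0 and 28.2, 8.26 and 6.46, and 7.44 and 4.33 CPM. *MYC* was thus higher at 3 h than at 1 h in both WT libraries under Act D, and lower in both A5-KO libraries. WT values from 1 to 3 h can therefore not be read as decay alone, nor the difference between the genotypes as a difference in decay. Whether Act D acted equally in both genotypes was not tested. *ALKBH5* itself was 133 and 125 CPM at 1 h and 48.3 and 33.7 at 3 h in WT, so both libraries at 3 h were lower. It is no typical gene here. Its change (-1.67, adjusted p = 0.000247 by limma) had the smallest p of all 13620 genes in WT, of which 0.0954% were called lower. *CTNNB1*, the coactivator, stayed between 434 and 533 CPM in all 16 libraries. With both WT libraries at 2 h left out, a choice made after the data were seen, the 4 differences could not move. They use only the means at 1 and 3 h, and only the estimate of the spread changed. Their calls were kept, which is no check of them. With 2 h in place of 3 h none was called.

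At 3 h, where the levels left can be compared directly, *TCF7L2* differed between A5-KO and WT by -1.57 on the log2 scale (SE 0.21, adjusted p = 6.30e-05), *ZNRF3* by -1.58 (SE 0.33, adjusted p = 0.00174) and *AXIN2* by -2.47 (SE 0.50, adjusted p = 0.00138). *TCF7L2* then stood at 17.1% of its 0 h mean in A5-KO against 49.4% in WT. *ZNRF3* stood at 15.0% against 43.8%, and *AXIN2* at 4.27% against 55.9%. The *AXIN2* difference was -1.49 without the first WT library and -3.44 without the second. *LGR4* differed by -0.48 (adjusted p = 0.00125), under 1.5-fold, *RNF43* by -0.89 (adjusted p = 0.189) and *TCF7* by 0.04 (adjusted p = 0.919).

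These 3 of 6 stood beside 19.1% of all genes called lower and 1.23% called higher at 3 h. With 2 h in place of 3 h only *TCF7L2* was called, while *AXIN2* (-0.66) and *ZNRF3* (-0.67) were not. Liver markers summed to 1576 and 1717 CPM in WT and 2417 and 2255 in A5-KO at 3 h, so the gap at 0 h was also present at 3 h. Progenitor markers summed to 1390 and 1095 CPM in WT and 1156 and 1046 in A5-KO at 0 h, and to 456 and 462 against 135 and 117 at 3 h, so their gap was wider after Act D.

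A single line through the 4 times gave a half-life in A5-KO of 1.14 h for *TCF7L2*, 1.14 h for *ZNRF3* and 0.782 h for *AXIN2*, on CPM and so relative to all other RNA. In WT the slopes were -0.33 per hour (SE 0.10, adjusted p = 0.354), -0.39 (SE 0.14, adjusted p = 0.354) and -0.27 (SE 0.20, adjusted p = 0.540), none of them called, and no half-life is given. The slopes of the genotypes differed by -0.54 per hour for *TCF7L2* (SE 0.15, adjusted p = 0.0546), -0.49 for *ZNRF3* (SE 0.19, adjusted p = 0.142) and -1.01 for *AXIN2* (SE 0.28, adjusted p = 0.0592). By limma none of 6 members was called, against 2.61% of genes steeper and 0.0661% flatter in A5-KO. In that fit of all times 3 of 6 had an unadjusted p below 0.05, and edgeR on the recovered reads called *TCF7L2* (-0.48, adjusted p = 0.0479). With 0 and 3 h alone, *AXIN2*, *TCF7L2*, *ZNRF3* and *LGR4* were called.

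*LEF1*, *LGR5* and *NKD1* had too few reads for a course. *LEF1* ended at 0.567 and 0.221 CPM in WT and 0.170 and 0.0632 in A5-KO, the last of them 2 reads. *LGR5* was 1.79 and 0.0948 CPM in WT at 3 h, 60 and 3 reads, and 0.341 and 0.348 in A5-KO. *NKD1* was 0.746 and 0.569 CPM in WT at 3 h and 0.341 and 0.537 in A5-KO. Both A5-KO libraries were the lower pair for *LEF1* and *NKD1*, with no test.

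Over the 16 PP libraries, *TCF7L2* and *ZNRF3* had the closest courses of any pair of members (Pearson r = 0.985 on log2(CPM + 0.1)), and *LGR4* followed *ZNRF3* with r = 0.905. The pairs with the lowest r were *RNF43* and *TCF7* (-0.077), *RNF43* and *LGR5* (-0.070), and *TCF7* and *NKD1* (-0.031). These points share their time of Act D and their library, so r describes the courses and carries no test. Among the 8920 genes whose mean reached 10 CPM, those most like *AXIN2* were *COP1* (r = 0.972), *PI4K2A* (0.959), *FBXL12* (0.953), *BRAP* (0.951) and *YWHAH* (0.951). Those most like *LGR5* were *KIF4A* (0.840), *SLC25A13* (0.728), *NOTCH1* (0.705), *POLR1A* (0.688) and *LINC01224* (0.679), and with so few reads behind *LGR5* these are no finding.

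The rest of the pathway was read from a list of 90 genes in 5 roles. At 0 h 62 of them were tested in PPs, and 1 was higher and 1 lower in A5-KO, beside 1.57% and 1.13% of all genes. The list's calls ranged from 0 to 6 under the alternatives. *TNFRSF19*, a TNF receptor and Wnt target, rose from 3.22 and 2.76 to 6.34 and 5.51 CPM (log2 difference 0.80, SE 0.18, adjusted p = 0.0368). *FZD9*, a Frizzled receptor, fell from 16.1 and 17.7 to 8.68 and 10.5 CPM (-0.76, SE 0.15, adjusted p = 0.0220). The list's median difference was 0.04, beside 0.03 for all genes.

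In hILOs, 6 of 64 tested were lower in A5-KO and none higher, beside 4.09% and 2.70% of all genes. Without any 1 of the 4 libraries the list had 0 or 1 call, and with no filter 2. *WNT8B*, a ligand, was 5.81 and 7.90 TPM in WT and 1.37 and 1.22 in A5-KO (log2 difference -1.76, adjusted p = 0.0171). *ASCL2*, a transcription factor of gut stem cells and a Wnt target, was 16.9 and 16.6 against 4.55 and 5.72 TPM (-1.54, adjusted p = 0.0101). *FZD7*, *MYC*, *DACT2* and *FZD5* were also called lower, with log2 differences of -0.83, -0.73, -0.66 and -0.62. The median of the list was -0.20, beside -0.06 for all genes, while the 6 feedback genes tested had a median of 0.03.

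After 3 h of Act D, 17 of 60 (28.3%) were lower in A5-KO and none higher, beside 19.1% and 1.23% of all genes, and the list's median was -0.26 beside -0.14 for all genes. By role, 8 of 14 receptors, 4 of 15 cytoplasmic genes and 5 of 15 nuclear partners and targets were called lower, and none of 6 ligands or 10 secreted and membrane inhibitors. *MYC* had the largest difference (-2.87, SE 0.38, adjusted p = 5.92e-05). *FZD8*, 15.1 and 15.4 CPM in WT against 4.94 and 4.43 in A5-KO, differed by -1.68, *FZD9* by -1.56 and *TLE3*, a corepressor of TCF factors, by -1.57. *GSK3B* and *APC*, parts of the destruction complex, differed by -1.44 and -1.40, *TLE4* by -1.47 and *DACT2* by -1.37. For decay slopes 3 of 60 were called, all steeper in A5-KO: *FZD7* (-0.53 per hour), *GSK3B* (-0.50) and *FZD4* (-0.45). Of all genes 2.61% were steeper. The 3 became 0 with no filter, 1 with median-of-ratios scaling or a pseudocount of 1, and 0 to 14 when a library was left out.

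**Figure D4:**
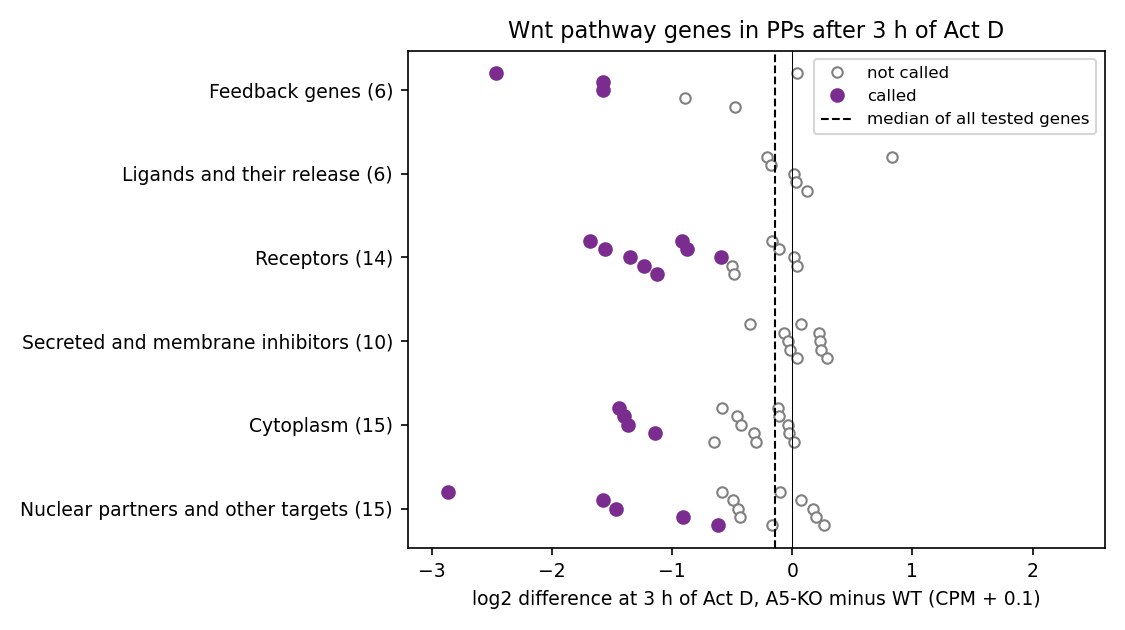
log2 difference at 3 h of Act D between A5-KO and WT (horizontal axis, CPM + 0.1) for the tested genes of each role, with their number in parentheses. Filled points were called, and the dashed line is the median of all 13620 genes (-0.14); 8 of 14 receptors and 3 of 6 feedback genes are filled, and no ligand or secreted inhibitor.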

How the data were processed

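The hILO values are TPM that the authors deposited per gene and library, from reads aligned to GRCh38 with HISAT2 (2.1.0, per the labels) and summarised with StringTie. The PP values are CPM that the authors deposited per gene after removing ERCC spike-ins. Their counter, strand setting and annotation release are not given in the sources used here, and no spike-in scaling was applied. CPM were whole multiples of 1 read for at least 99.995% of values, within 0.01 read.

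Groups came from the sample titles. Levels were fitted with limma (3.58.1 in R 4.3.3) on log2 of the deposited value plus 1, and courses over all 16 PP libraries on log2(CPM + 0.1), keeping genes whose mean reached 1 and using eBayes with a trend. *p* values were adjusted over all tested genes by Benjamini-Hochberg. Differences between genotypes in a slope or in a change over time needed an adjusted p below 0.05 only, all others also 1.5-fold. Fold changes on these scales understate the change of low genes. edgeR (4.0.16) and DESeq2 (1.42.0) were run on recovered reads as alternatives. The code was tested on simulated data. The labels do not say that replicates came from separate cultures, while the paper calls the replicates of the PP decay course biological. It also states that wells within a replicate came from a shared batch of cells, which the main fits do not model. The p values measure the spread between these libraries.

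The members, the wider list and the markers were chosen with earlier results of these data known. Named genes are the 9 members, *ALKBH5*, *CTNNB1*, of the wider list at most 8 called genes with the largest change and a mean of at least 5, and the 5 genes most like *AXIN2* and *LGR5*. *MYC* values over time were added after they were seen. Annotation is GENCODE v44.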

Additional observations from a re-analysis of the deposited data

Results flagged for a closer look

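The difference between the genotypes in the change from 1 to 3 h of Act D was past its threshold for 4 of the 6 members tested, with 18.3% of all genes lower in A5-KO by the same limma fit. It was -1.57 for *TCF7L2*, -1.39 for *ZNRF3*, -3.27 for *AXIN2* and -2.33 for *RNF43* on the log2 scale. Each WT change was near or above 0 and each A5-KO change below 0. Whether Act D acted equally in both genotypes was not tested, so these are differences in level over time and not measured differences in decay. *RNF43* rests on 8 to 65 reads per library and shares 69.0% of its exon bases with another gene, and *AXIN2* rests on 4 to 145 reads.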

How the results depend on the processing

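The calls of *TCF7L2* from 0 to 1 h in both genotypes, from 1 to 3 h in A5-KO and between the genotypes at 3 h held under each alternative run. With no filter on low values more genes enter the adjustment. Of all genes 330 were then called in hILOs (1174 with the filter), 164 at 0 h (375), 0 for slopes (364), 52 from 1 to 3 h in WT (90), 15 for the difference of the first hour (34) and 1683 for that from 1 to 3 h (2801). Members called were 2 from 0 to 1 h in WT and 2 for the later difference, and the wider list gave 2 in hILOs, 0 at 0 h and 0 for slopes. In the labels, replicate numbers pair libraries by number only. Deviations of same-numbered PP libraries correlated with r from -0.39 to 0.29 over 28 pairs of conditions, above 0.1 in 7, with 0.28 between the genotypes at 0 h, and with 0.026 in hILOs. With a replicate block 674 genes were called in hILOs, 631 at 0 h and 0 for slopes, with 6 of the wider list at 0 h and 0 for slopes. The block changed 2 calls among members, both of which lost theirs: *ZNRF3* in the later difference (adjusted p = 0.0573 by limma) and *RNF43* from 0 to 1 h in WT (adjusted p = 0.0550).

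Median-of-ratios scaling called 109 genes for slopes, 4 of the wider list at 0 h and 1 for slopes, and 2 members from 0 to 1 h in A5-KO. It turned uncalled values of *LGR4* in hILOs to 0.061, *TCF7* in the slope to 0.052, and *ZNRF3* and *TCF7L2* from 1 to 3 h in WT to -0.028 and -0.012. Among all genes called in the later difference, 801 were then higher and 1892 lower, against 306 and 2495 as deposited, and at 3 h 386 and 2059 against 168 and 2605. Quantile normalization gave *LGR4* 0.027 in hILOs. A pseudocount of 1 called 173 genes for slopes, with 1 of the wider list. edgeR called 1 member for slopes and gave *TCF7* 0.044 there, and -0.023 for *ZNRF3* and -0.0059 for *TCF7L2* from 1 to 3 h in WT. DESeq2 called 4 of the wider list at 0 h. With 0 and 3 h alone, slopes called 3028 genes, 25 of the wider list and 4 members, and *TCF7* was 0.033. Without 2 h they called 725, 7 and 1, and *TCF7* was 0.030.

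With 2 h in place of 3 h, the genes called were 0 in WT, 967 in A5-KO, 1 for the difference and 1028 between the genotypes, where the wider list gave 6. Members called were 1 in A5-KO, 0 for the difference and 1 between the genotypes. *LGR4* was then -0.054 in WT, 0.098 in A5-KO, 0.15 in the difference and 0.0066 between the genotypes. *ZNRF3* was -0.35 and *TCF7L2* -0.25 in WT, *TCF7* was -0.47 in the difference and -0.44 between the genotypes, and *RNF43* was 0.92 between them. Without both WT libraries at 2 h, 141 genes were called from 1 to 3 h in WT. The cause of these changes was not tested.

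Leaving out 1 library at a time, with the lone sample assumed to vary like the others, moved all genes called between 143 and 289 in hILOs, 237 and 440 at 0 h, 0 and 1504 for slopes, 1059 and 2286 for the first hour in WT, 1268 and 2781 in A5-KO, 37 and 141 from 1 to 3 h in WT, 1567 and 2562 in A5-KO, 11 and 68 for the first difference and 1448 and 3647 for the later one. The wider list moved between 0 and 1 in hILOs, 0 and 5 at 0 h and 0 and 14 for slopes. Members called moved between 0 and 3 for slopes, the 3 without the first WT library at 0 h and without the first at 2 h, 1 and 4 for the first hour in WT, 1 and 4 in A5-KO, and 2 and 4 for the later difference. Members called as single genes did not change sign. The uncalled values that did ranged as follows. In hILOs *AXIN2* ranged from -0.039 to 0.41, *LGR4* from -0.035 to 0.031, *TCF7* from -1.22 to 0.47 and *TCF7L2* from -0.31 to 0.44. At 0 h *LGR4* ranged from -0.062 to 0.18, *ZNRF3* from -0.34 to 0.15, *TCF7* from -0.11 to 0.014 and *TCF7L2* from -0.18 to 0.087. *TCF7* ranged from -0.085 to 0.037 for slopes, -0.29 to 0.33 for the first hour in WT, -0.49 to 0.12 from 1 to 3 h in WT, -0.23 to 0.39 in the first difference, -0.29 to 0.33 in the later one and -0.22 to 0.31 at 3 h. From 1 to 3 h in WT *AXIN2* ranged from -0.22 to 1.74, *ZNRF3* from -0.15 to 0.19 and *TCF7L2* from -0.12 to 0.19. In the first difference *ZNRF3* ranged from -0.35 to 0.18 and *TCF7L2* from -0.090 to 0.18.

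With 2 libraries a condition, depth limits *AXIN2*, *RNF43*, *NKD1*, *LEF1* and *LGR5*, which had at most 145 reads in a PP library.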
